A study of Homo sapiens with 8 samples.

Results

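LINC genes are long intergenic noncoding RNA genes that carry a systematic symbol because no function had been assigned when they were named. Here they are the lncRNA genes of GENCODE release 44 with a symbol made of LINC and a number and chosen by a mean level of at least 0.3 CPM over the 8 libraries of the series, where CPM is a gene's reads per 1000000 reads that its library assigned to genes. The count tables held 2242 such genes, 1410 of them without a read in any library, and 163 reached the limit. All 163 passed the low-count filter of the test. The level was what chose them, so it is given below as a description, while the differences between groups were not used by the rule. Of the 163 genes, 127 had a mean of at least 0.3 CPM in each of the 4 groups and 36 were below it in at least 1 group, and LINC02018 alone reached it in only 1 group. The choice by level favours genes that are high in some groups, so for those 36 the differences between groups are partly set by it.

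The libraries came from the human pancreatic carcinoma line Panc10.05 and from a derivative with acquired resistance to indisulam. Indisulam is an aryl sulfonamide that glues RBM39, a splicing factor, onto a ubiquitin ligase with DCAF15 as its receptor and so leads to its degradation. The 4 groups of 2 libraries were parental cells without drug, parental cells given 2 µM indisulam for 18 h, resistant cells kept in 2 µM indisulam, and resistant cells taken off the drug for 1 wk, which the labels call a drug holiday. The resistant cells had been grown in rising doses over months, so the 2 lines also differ in time in culture and in selection, and the length of drug exposure differs between the lines. The paired libraries are described as technical replicates, so the p-values below measure the spread between these libraries, not between separate cultures. The growth notes name A549, a lung line, but Panc10.05 stands in every title and cell line label, which were used here.

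Intergenic lncRNAs are transcribed by RNA polymerase II, capped, usually spliced and polyadenylated like messenger RNAs, but they are shorter in exon number, lower in level and often kept in the nucleus. Unspliced or poorly ended transcripts of this kind are known substrates of the nuclear exosome, to which adaptor complexes such as NEXT and PAXT deliver them.

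The libraries held between 65266253 and 108002436 reads assigned to genes, so 0.3 CPM stood for about 20 to 32 reads. The 7 ductal epithelial markers summed to between 6329 and 12250 CPM and were all above 1 CPM. The 4 lung markers summed to at most 0.198 CPM in any library and the 4 leukocyte markers to at most 0.181 CPM. Whether these markers can tell Panc10.05 from A549 was not tested. The summed ductal markers differed between the lines, with group means of 6392 and 6466 CPM in parental and 10850 and 12060 CPM in resistant cells, and their part in the results was not tested. RBM39 itself, whose protein is the drug's target, had a mean of 334 CPM in untreated and 724 CPM in treated parental cells, and 305 and 584 CPM in resistant cells off and on the drug.

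The 163 genes lay on 23 chromosomes. Their exons covered a median of 3.25 kb, from 0.371 to 33.2 kb, with a median GC content of 47.7%. Only 25 had a single exon, 76 had 2 to 4 exons in the transcript model with the most exons and 62 had 5 or more. The median distance to the nearest protein-coding gene was 11.3 kb, 78 genes lay within 10 kb of one and 23 overlapped its body. Exons of 97 genes overlapped no exon of another gene, while 57 overlapped one on the opposite strand and 23 one on the same strand. For those, reads may have been counted to the partner or set aside as ambiguous, a class that held 2.56% to 2.84% of reads per library. The strand setting of the counting is not given in the sources used here. A total of 14 genes, some of them with overlapping exons too, had a near-identical copy, meaning that at least 50% of their longest transcript matched a transcript elsewhere in the genome at 95% identity or more.

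Most of the genes were at a low level. The median of their mean levels was 1.29 CPM; 69 were under 1 CPM, 81 between 1 and 10 CPM and 13 at 10 CPM or more. LINC01465 (0.304 CPM), LINC00663 (0.306 CPM) and LINC01023 (0.309 CPM) lay just inside the limit, and LINC01126 (0.299 CPM), LINC02029 (0.298 CPM) and LINC02605 (0.297 CPM) just outside it. The 6 highest mean levels were those of LINC03061 at 221 CPM, LINC00665 at 67.4, LINC00973 at 29.5, LINC01278 at 29.3, LINC00667 at 29.2 and LINC00963 at 22.8 CPM. Per kb of exon, LINC03061 had 43.4 and LINC00973 30.7 CPM per kb, whereas LINC01278, LINC00667 and LINC00963, which have over 10 kb of exon each, had 2.07, 2.89 and 1.62 CPM per kb.

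One gene carried a large part of the total. LINC03061 (ENSG00000275216, chr13:109269634-109278512, plus strand, GRCh38) has 2 exons and lies 61.6 kb from MYO16. It made up between 18.7% and 37.0% of the summed level of the 163 genes. The sum was 813 and 822 CPM in untreated parental cells, 832 and 828 CPM in treated parental cells, 724 and 768 CPM in resistant cells off the drug and 919 and 942 CPM on it. Without LINC03061 the 8 sums were 661 and 664, 591 and 587, 584 and 607, and 595 and 593 CPM in the same order, so that untreated parental libraries stood above all others and the resistant groups overlapped.

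Short-term indisulam lowered many LINC genes in the parental line. Of the 163 genes, 67 fell and 17 rose, against 26.6% of all 16661 tested genes called lower and 31.6% called higher (58.2% in either direction). The tested genes also include genes under 0.3 CPM and 8809 at 10 CPM or more, so shares by level are given below. The calls are by edgeR's quasi-likelihood test at an adjusted p under 0.05. The median difference was -0.25 on the log2 scale, compared with 0.01 over all tested genes, and 24 genes fell and 2 rose by more than 1 log2 unit, a size that 6.33% of all tested genes passed in either direction. With library totals in place of the TMM scaling, 42.0% of the calls over all genes were higher instead of 54.3%, and 12 LINC genes were called higher and 76 lower.

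Other classes of noncoding RNA showed like shares of falls. Among lncRNA genes at the same limit, 42.3% of 189 divergent transcripts, 46.0% of 387 antisense transcripts and 40.9% of 843 others were called lower, compared with 41.1% of the LINC genes and 26.0% of 11640 protein-coding genes. By level, the share called lower was 33.3% of 69 LINC genes against 30.2% of all tested genes between 0.3 and 1 CPM, 45.7% of 81 against 36.4% between 1 and 10 CPM, and 53.8% of 13 against 24.5% at 10 CPM or more, so the shares were closest in the lowest class. None of these differences between shares was tested. The share of reads that fell outside annotated genes moved in the same direction, from 3.73% and 3.94% in the untreated to 2.89% and 2.86% in the treated parental libraries, and its part in the result was not tested.

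**Figure D1:**
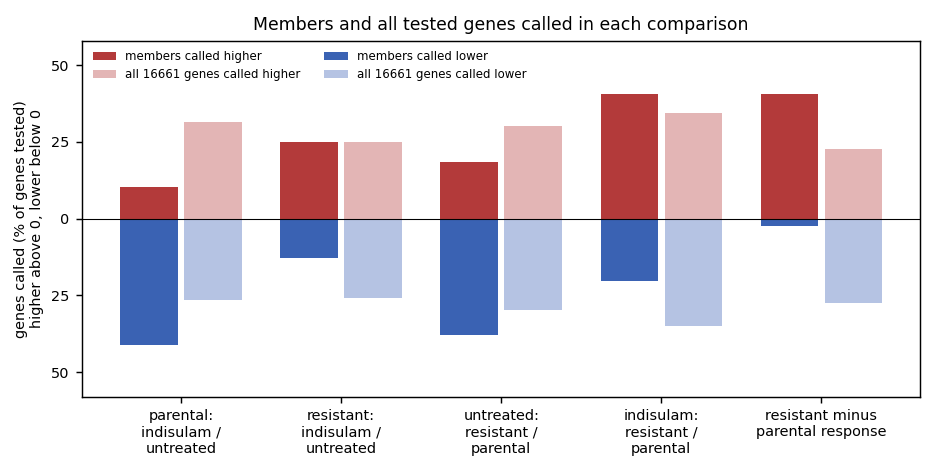
Share of LINC genes (dark bars, 163 genes) and of all 16661 tested genes (light bars) called higher (red, upward) or lower (blue, downward) in each of the 5 comparisons, in % of genes tested, at an adjusted p under 0.05. LINC genes were called lower more often than higher in the parental drug comparison (67 against 17) and almost only higher in the difference of the responses (66 against 4).

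LINC00173 showed the largest fall. This 3-exon gene (ENSG00000196668, chr12:116533422-116536518, plus strand, GRCh38) lies 11.6 kb from MAP1LC3B2 and shares no exon with another gene. Its level was 1.51 and 1.21 CPM in untreated and 0.24 and 0.31 CPM in treated parental libraries, and 0.824, 0.893, 0.742 and 0.79 CPM in the 4 resistant libraries. The treated parental libraries stood below all others. The fall was -2.30 ± 0.21 on the log2 scale (SE, n = 2 libraries per group, edgeR adjusted p = 2.4e-09), whereas the resistant line changed by -0.15 ± 0.19 (edgeR adjusted p = 0.53).

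LINC00173 has introns in the annotation, as do 64 of the 67 genes that fell and 138 of all 163, and its splice sites are shown. Genes annotated with at least 2 exons are called spliced here. Each line gives 30 bases of GRCh38 on the plus strand around a site, with the first or last 2 bases of the intron in capitals. Its 2 introns are 2503 and 141 bases long.
donor of intron 1, chr12:116533607-116533636: tttgcataatGTaagtacttatttaatgcg
acceptor of intron 1, chr12:116536095-116536124: gtttaatggccctctgctccaccAGtatgg
donor of intron 2, chr12:116536202-116536231: tgagtgctcgGTaaatatctgtggctttaa
acceptor of intron 2, chr12:116536328-116536357: atcgtactattcctcatctccacAGggtca
Both introns have the usual GT and AG ends, as do 556 of the 567 introns of the 138 spliced LINC genes, while the other 11 begin with GC. In the 20 bases before the AG, 70% and 75% of bases were pyrimidines in the 2 introns, and the median over all 567 was 75%. No splice junction was counted in these tables, so nothing is known here about how often the introns were removed.

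LINC01355 (ENSG00000261326, chr1, 16.3 kb from HNRNPR) fell from 2.27 and 2.26 CPM to 0.88 and 0.504 CPM in the parental line, a change of -1.71 ± 0.18 on the log2 scale (edgeR adjusted p = 6.5e-08). It ranged from -2.18 to -1.38 when single libraries were left out, the lowest and highest of 8 fits. LINC00862 (ENSG00000203721, chr1) fell from 0.32 and 0.346 to 0.08 and 0.129 CPM, and LINC02298 (ENSG00000257556, chr14) from 0.238 and 0.206 to 0.0667 and 0.0775 CPM. Their log2 changes were -1.65 ± 0.34 and -1.60 ± 0.41 (edgeR adjusted p = 0.00025 and 0.0017), and the treated and untreated libraries did not overlap for either gene. Both changes rest on few reads in the treated libraries. LINC02298 was under 0.3 CPM in every parental library and reached the level limit only through the resistant ones.

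The 17 genes that rose were 4 of the 69 under 1 CPM, 10 of the 81 between 1 and 10 CPM and 3 of the 13 at 10 CPM or more. These are 5.80%, 12.3% and 23.1%, against 7.02%, 17.3% and 50.5% of all tested genes in the same classes. LINC00942 (ENSG00000249628, chr12, 2 exons, 4.59 kb from ERC1) went from 0.265 and 0.271 to 0.654 and 0.697 CPM, a rise of 1.33 ± 0.22 on the log2 scale (edgeR adjusted p = 1.5e-05). Its untreated libraries were under the limit of 0.3 CPM, so the choice by level may favour this rise. LINC03033 rose by 1.16 ± 0.24, LINC01293 by 0.95 ± 0.19 and LINC02454 by 0.88 ± 0.16, with mean levels over all libraries of 0.338, 0.965 and 1.92 CPM. LINC03033 overlaps LINC01303 on the opposite strand and resembles part of GDAP1, so its counts are uncertain. LINC03061 rose at a much higher level, from 152 and 158 to 241 and 241 CPM, with a log2 change of 0.64 ± 0.07 (edgeR adjusted p = 0.00039).

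The falls lay mostly among the spliced genes. Of the 138 genes with at least 2 exons, 64 fell and 13 rose (median log2 change -0.32), compared with 3 that fell and 4 that rose of the 25 single-exon genes (median 0.04). Restricted to the 97 genes without an overlapping exon, a choice made after these data were seen, the counts were 38 lower and 7 higher of 81 spliced genes, and 1 lower and 3 higher of 16 single-exon genes. The single-exon genes differed in other ways too: their median GC content was 55.1% against 47.3%, and their median exonic length 2.25 kb against 3.90 kb, while the median levels were alike at 1.28 and 1.29 CPM. Other lncRNA genes called lower made up 31.0% of those with 1 exon, 44.2% of those with 2 to 4 and 53.0% of those with 5 or more. Of all tested genes with 1 exon, 20.6% fell and 12.3% rose, and of those with at least 2 exons 27.3% fell and 34.1% rose. A smaller share of single-exon genes thus fell over all genes too. They were also called less often in either direction, 32.97% against 61.45%. Their median log2 change was -0.04, against 0.02 with at least 2 exons, the reverse of the order among LINC genes. The difference between the exon classes was not tested, and the part of GC content and length in it was not tested either.

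The single-exon genes that fell were LINC00115, LINC00997 and LINC03072, by 0.67, 0.47 and 0.32 on the log2 scale. Those that rose were LINC02967, LINC01560, LINC03052 and LINC00938, by 0.64, 0.51, 0.33 and 0.25. These 7 were named because they are the whole of a small count. LINC00938 (ENSG00000273015, chr12, 9.82 kb, 1.85 kb from ARID2) illustrates the small spread at a higher level: it had 19.7 and 19.5 CPM in untreated and 23.4 and 23.1 CPM in treated parental libraries.

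**Figure D2:**
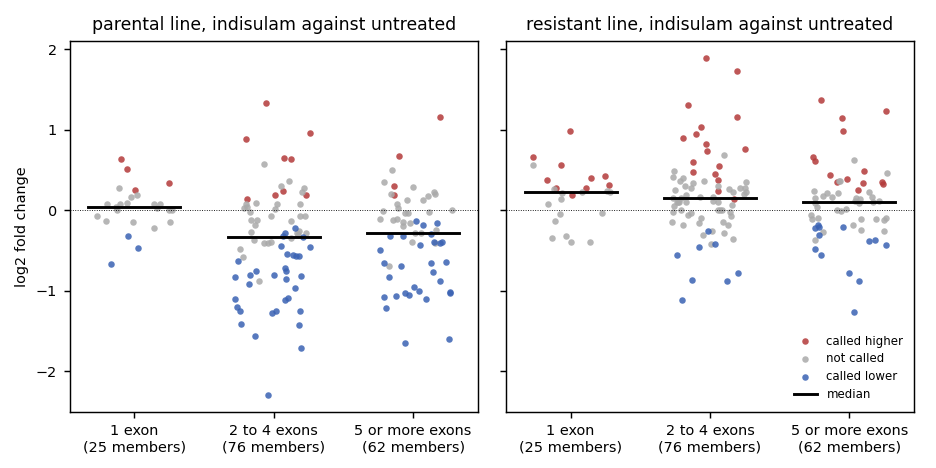
Log2 fold change of each LINC gene on indisulam in the parental (left) and the resistant line (right), split by the highest exon number among its transcript models. Each point is a gene, colours give the edgeR call and black bars the median, which in the parental line was 0.04 for 1 exon and below -0.25 for both spliced classes.

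In resistant cells fewer LINC genes were lower with the drug. Relative to the drug holiday, 41 LINC genes were higher and 21 lower on continuous indisulam, which is 25.2% and 12.9%, against 24.9% of all tested genes higher and 25.8% lower (50.7% in either direction). The share higher was thus at that of all genes, and the share lower was below it. All tested genes between 0.3 and 1 CPM showed 22.1% higher and 8.70% lower, and the 13 LINC genes at 10 CPM or more had 5 higher and 7 lower, with a median of -0.18. The median log2 difference was 0.15, compared with 0.01 over all tested genes, and 8 genes were higher and 2 lower by more than 1 log2 unit, where 5.2% of all tested genes passed that size. Other lncRNA classes showed shares called higher of 19.4% to 22.3%, with 12.7% to 17.8% lower. Scaled by library totals, 59.7% instead of 49.1% of the calls over all genes were higher, and 52 LINC genes were called higher and 19 lower. The share of reads outside annotated genes was 2.98% and 3.56% off the drug and 3.93% and 3.93% on it, and its part in the result was not tested.

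A pair of neighbouring genes led the rises. LINC01291 (ENSG00000204792, chr2:74918148-74938418) and LINC01293 (ENSG00000230836, chr2:74940258-74942670) lie one after the other on the plus strand, 20.2 and 16.0 kb from POLE4, which encodes a DNA polymerase epsilon subunit. LINC01293 had 0.581 and 0.477 CPM off the drug and 1.9 and 2.05 CPM on it, and LINC01291 had 0.554 and 0.462 against 1.66 and 1.73 CPM. The changes were 1.89 ± 0.18 and 1.73 ± 0.18 on the log2 scale (edgeR adjusted p = 3.8e-09 and 2.9e-08).

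In the parental line, LINC01293 had 0.466 and 0.44 CPM without and 0.76 and 0.994 CPM with the drug, and LINC01291 had 0.53 and 0.384 against 0.56 and 0.568 CPM. LINC01293 thus rose in both lines, whereas the change of LINC01291 in the parental line, 0.30 ± 0.21, did not pass the test (edgeR adjusted p = 0.23). The difference between the lines' responses was called for both, at 1.43 ± 0.28 for LINC01291 and 0.94 ± 0.27 for LINC01293 (edgeR adjusted p = 0.00021 and 0.0057).

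LINC02246 (1.37 ± 0.28) and LINC00685 (1.30 ± 0.36) were the next largest rises on the log2 scale, both with uncertain counts. LINC02246 shares exons on the same strand with an unnamed lncRNA, to which 86.3% of their joint reads were counted, and LINC00685 has an identical copy in the annotation. For LINC00685 the adjusted p rose to at most 0.0789 and the change to between 0.80 and 2.20 when single libraries were left out, and the call was lost without the second library of either resistant group. LINC03061 rose more in resistant than in parental cells: it had 140 and 161 CPM off the drug and 324 and 349 CPM on it, a log2 change of 1.16 ± 0.07 (edgeR adjusted p = 2.8e-05), and the difference between the responses was 0.52 ± 0.10 (edgeR adjusted p = 0.0061).

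LINC01285, LINC00648, LINC01806 and LINC01515 showed the largest falls on continuous drug. LINC01285 (ENSG00000203650, chrX, 11 exons) had 1.54 and 1.66 CPM off the drug and 0.519 and 0.769 CPM on it, a change of -1.27 ± 0.19 on the log2 scale (edgeR adjusted p = 9.6e-06). The other changes were -1.12 ± 0.17 for LINC00648, -0.88 ± 0.18 for LINC01806 and -0.88 ± 0.27 for LINC01515. LINC01515 lost its call without the first library off the drug or the second on it, with changes between -1.05 and -0.68.

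None of the 25 single-exon genes fell in resistant cells and 10 rose, among them LINC02035 (0.98), LINC01521 (0.66) and LINC00235 (0.56 on the log2 scale), which were picked for display after their values were seen. Of the spliced genes, 31 rose and 21 fell, with a median of 0.11 against 0.23 for the single-exon genes. Of all tested genes with 1 exon, 15.9% rose and 7.19% fell in resistant cells. Falls were thus also few there, but so were calls in either direction, at 23.1% against 54.4% with at least 2 exons. Of all tested genes with at least 2 exons, 26.1% rose and 28.3% fell. Neither split was tested.

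The drug comparisons of the 2 lines share no library, so their calls can be set side by side. A total of 26 genes, or 16.0%, were called in the same direction in both lines, 17 of them lower and 9 higher, and 11, or 6.75%, in opposite directions, against 22.4% and 11.2% of all tested genes. All 11 fell in parental and rose in resistant cells, and no gene did the reverse. A further 72 genes were called in 1 line only, 39 of them as a fall in the parental line, and 54 in neither. Shares of all tested genes for these last counts and for the splits by direction were not taken, so they are a description only.

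Genes lower in both lines included LINC00648 (ENSG00000259129, chr14, 89.3 kb from MDGA2), with 1.33 and 1.44 against 0.734 and 0.555 CPM in parental and 2.01 and 1.56 against 0.742 and 0.884 CPM in resistant cells. Its log2 changes were -1.11 ± 0.18 and -1.12 ± 0.17, and every treated library stood below every untreated one. LINC01806 (-1.12 and -0.88), LINC01515 (-1.21 and -0.88) and LINC01355 (-1.71 and -0.42) also fell in both lines. Genes higher in both lines were LINC03061, LINC00641, LINC00938, LINC03052, LINC01560, LINC01140, LINC02551, LINC01293 and LINC00942.

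**Figure D3:**
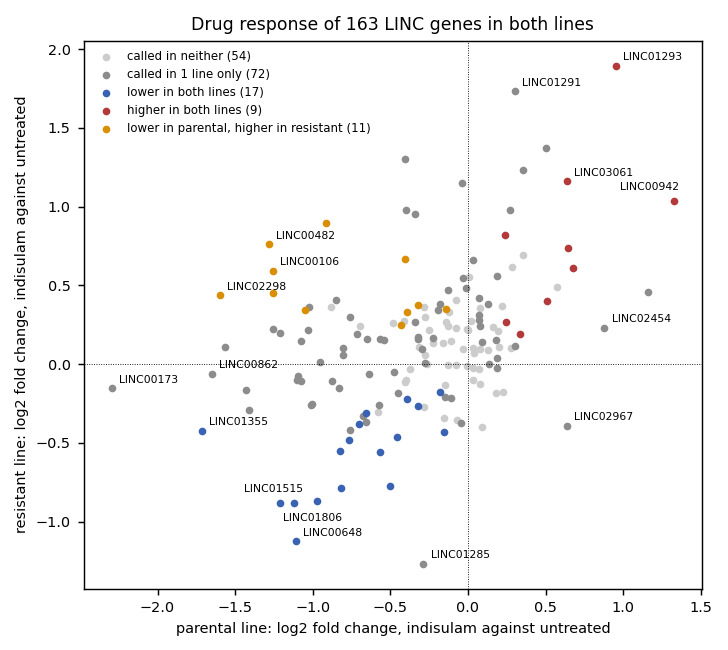
Log2 fold change on indisulam of the 163 LINC genes in the parental line (x axis) and the resistant line (y axis), coloured by the pair of edgeR calls, with the named genes labelled. The 17 genes lower in both lines lie at the lower left, the 9 higher in both at the upper right, and the 11 that fell in parental and rose in resistant cells at the upper left.

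The difference between the responses was tested directly as resistant minus parental log2 change. It was called higher for 66 LINC genes and lower for 4, with a median of 0.34, against 22.7% of all tested genes higher and 27.5% lower (50.1% in either direction, median 0.01). Scaled by library totals, 65.8% instead of 45.2% of the calls over all genes were higher, with 82 LINC genes higher and 4 lower, and the median over all genes moved by 0.12. Again other lncRNAs were alike, with 38.1% to 39.3% higher and 4.03% to 5.43% lower in the 3 other classes, while 21.9% of protein-coding genes were higher and 37.9% lower. By level, 33.3% of LINC genes against 29.4% of all tested genes were higher at 0.3 to 1 CPM, 45.7% against 35.1% at 1 to 10 CPM and 6 of 13 against 18.7% at 10 CPM or more, and among the 127 genes with at least 0.3 CPM in each group 49 were higher and 4 lower. A difference past 1 log2 unit was seen for 27 genes higher and 1 lower, and for 7.78% of all tested genes.

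LINC00173, LINC00482, LINC02298 and LINC00106 differed most in the positive direction. LINC00482 (ENSG00000185168, chr17, 8.22 kb from SLC38A10) fell from 0.621 and 0.533 to 0.307 and 0.168 CPM in parental cells and was higher on the drug in resistant cells, at 1.47 and 1.64 against 0.689 and 1.19 CPM. LINC02298 fell in parental cells, as described above, and had 0.702 and 0.924 CPM off and 1.07 and 1.11 CPM on the drug in resistant cells. For both genes the 4 groups stood in one order, with treated parental libraries lowest and treated resistant libraries highest, and no library of one of these 2 groups overlapped another group.

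LINC00106 (ENSG00000236871, chrX, 0.592 kb of exon) had 2.93 and 3.34 CPM in untreated and 1.24 and 1.38 CPM in treated parental cells, and 1.7 and 2.22 CPM off and 3.11 and 2.8 CPM on the drug in resistant cells. The annotation holds an identical copy under the same symbol, so the counts of LINC00106 are uncertain. The difference of the responses was 1.85 ± 0.19 on the log2 scale (edgeR adjusted p = 3.3e-08), compared with 2.14 ± 0.29 for LINC00173, 2.05 ± 0.37 for LINC00482 and 2.04 ± 0.44 for LINC02298.

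The 4 genes in the negative direction were LINC02967, LINC02454, LINC00665 and LINC00963. LINC02967 (ENSG00000274173, chr20, 1 exon) had 1.24 CPM in both untreated and 1.84 and 2.03 CPM in both treated parental libraries, then 1.2 and 1.03 CPM off and 1.02 and 0.728 CPM on the drug in resistant cells. Its difference of -1.03 ± 0.23 (edgeR adjusted p = 0.00068) was the only one past 1 log2 unit in this direction. LINC00665 (-0.33 ± 0.04) and LINC00963 (-0.28 ± 0.06) were small but precise, being at 48.6 to 80.2 and 20.2 to 28.2 CPM.

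**Figure D4:**
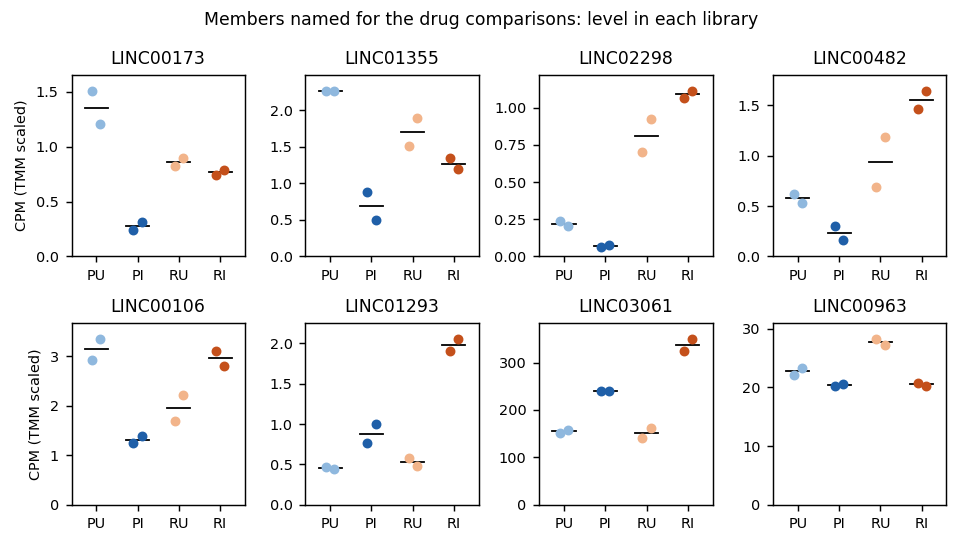
TMM-scaled CPM (y axis, from 0) in each library of 8 LINC genes named for the drug comparisons, for parental untreated (PU), parental indisulam (PI), resistant off the drug (RU) and resistant on indisulam (RI) cells. Points are libraries and bars the mean of 2; LINC00173 is lowest in PI, LINC02298 and LINC00482 are highest in RI, and LINC03061 and LINC01293 are higher with the drug in both lines.

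Between the lines off the drug, 30 LINC genes were higher and 62 lower in resistant cells, against 30.3% of all tested genes higher and 29.9% lower (60.1% in either direction). The median log2 difference was -0.19, compared with -0.02 over all tested genes. A total of 8 genes were higher and 12 lower by more than 1 log2 unit, where 11.0% of all tested genes passed that size. The share called lower was 43.9% for divergent, 42.9% for antisense and 37.7% for other lncRNAs, compared with 38.0% of the LINC genes.

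On the drug, 66 LINC genes were higher and 33 lower in resistant than in parental cells, which is 40.5% and 20.2%, against 34.6% and 34.9% of all tested genes (69.5% in either direction). Among the 127 genes with at least 0.3 CPM in each group, 45 were higher and 29 lower; the others include genes that reached the limit through the groups where they were high. Of all tested genes, 41.8% were higher at 0.3 to 1 CPM and 46.8% at 1 to 10 CPM. The median was 0.21, and 25 genes were higher and 8 lower by more than 1 log2 unit (14.8% of all tested genes). Scaled by library totals, 59.7% instead of 49.8% of the calls over all genes were higher, and 77 LINC genes were called higher and 25 lower. Duration of exposure differs between the compared groups, 18 h against continuous culture, and cannot be told apart from the line.

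LINC01285, LINC02984 and LINC02298 were under 0.3 CPM in every parental library and reached the level limit only through the resistant ones. The choice by level favours such genes, so that they were higher in resistant cells is partly set by it. LINC01285 was near 0 in parental cells. LINC01285 had 6 and 1 reads in untreated and 1 and 3 reads in treated parental libraries, against 114 and 108 reads off and 35 and 74 reads on the drug in resistant cells. This gave 0.0548, 0.00936, 0.0133 and 0.0387 CPM in parental and 0.519 to 1.66 CPM in resistant libraries, with no overlap. The log2 difference off the drug was 5.56 ± 0.33 (edgeR adjusted p = 1.1e-12), and its size depends on a handful of parental reads.

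LINC02984 (ENSG00000237807, 4 exons, 191 kb from ATP6V1H) had 0.116 to 0.243 CPM in the 4 parental libraries and 6.29, 6.13, 5.96 and 5.64 CPM in the resistant ones. The difference was 4.83 ± 0.15 off and 5.13 ± 0.17 on the drug on the log2 scale (edgeR adjusted p = 1.4e-18 and 7.7e-18), and the drug comparison was called in neither line (edgeR adjusted p = 0.33 and 0.37). LINC02551 (ENSG00000254842, chr11, 0.689 kb from SNX19) had 0.548 and 0.402 CPM in untreated parental and 2.19 and 1.82 CPM in resistant cells off the drug, and it rose with the drug in both lines, to 0.827 and 0.697 CPM and to 3.03 and 3.1 CPM. LINC02298 was the other gene among the 4 largest rises, at 1.86 ± 0.23 off and 3.89 ± 0.29 on the drug, and LINC00482 (2.72 ± 0.27) followed on the drug.

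LINC01239, LINC00707, LINC03060 and LINC03015 were the largest losses in the resistant line off the drug. LINC00707 (ENSG00000238266, chr10, 7 exons) had 3.76, 3.57, 3.45 and 3.82 CPM in the parental libraries, 1.12 and 0.924 CPM off and 1.53 and 1.37 CPM on the drug in resistant cells, a difference of -1.83 ± 0.13 off the drug (edgeR adjusted p = 7.9e-12). LINC01239 (ENSG00000234840, chr9, 190 kb from DMRTA1) had 0.694 to 0.891 CPM in parental cells and 0.135 and 0.169 CPM off and 0.386 and 0.302 CPM on the drug in resistant cells (-2.42 ± 0.27 off the drug). LINC01239 was thus under 0.3 CPM in both resistant libraries off the drug. The choice by level favours such genes, so that choice partly sets the difference.

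LINC03060 (-1.38 ± 0.15) and LINC03015 (-1.38 ± 0.14) were lower in the resistant line off the drug and also on it (-0.91 ± 0.15 and -1.38 ± 0.16). LINC03015 fell with the drug by the same amount in both lines, -0.56 ± 0.12 and -0.56 ± 0.18. On the drug, LINC02967 was also among the 4 largest losses, at -1.18 ± 0.16. For each of these genes the parental and resistant libraries did not overlap in the comparison named.

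**Figure D5:**
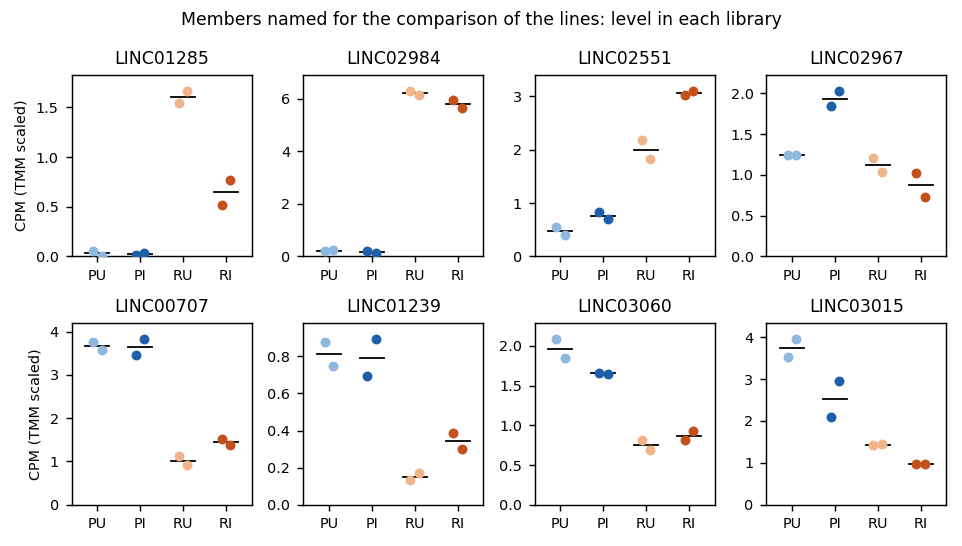
TMM-scaled CPM (y axis, from 0) in each library of 8 LINC genes named for the comparison of the lines, for parental untreated (PU), parental indisulam (PI), resistant off the drug (RU) and resistant on indisulam (RI) cells. Points are libraries and bars the mean of 2; LINC01285, LINC02984 and LINC02551 are higher and LINC00707, LINC01239, LINC03060 and LINC03015 lower in all resistant libraries.

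Promoters are shown for 3 genes with large differences between the lines, LINC01285 and LINC02551, which were higher, and LINC03015, which was lower. Each is the 300 bases from 250 before to 50 after a RefSeq start on GRCh38.p14, read along the gene's strand, with CG dinucleotides, the sites of DNA methylation, in capitals.
LINC01285, chrX:118839306-118839605, plus strand: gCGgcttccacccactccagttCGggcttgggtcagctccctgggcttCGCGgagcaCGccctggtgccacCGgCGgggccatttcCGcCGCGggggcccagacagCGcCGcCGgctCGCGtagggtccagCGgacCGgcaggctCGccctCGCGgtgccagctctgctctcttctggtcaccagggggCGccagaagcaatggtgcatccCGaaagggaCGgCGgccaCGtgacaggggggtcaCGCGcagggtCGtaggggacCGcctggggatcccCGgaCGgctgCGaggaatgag
LINC02551, chr11:130862061-130862360, minus strand: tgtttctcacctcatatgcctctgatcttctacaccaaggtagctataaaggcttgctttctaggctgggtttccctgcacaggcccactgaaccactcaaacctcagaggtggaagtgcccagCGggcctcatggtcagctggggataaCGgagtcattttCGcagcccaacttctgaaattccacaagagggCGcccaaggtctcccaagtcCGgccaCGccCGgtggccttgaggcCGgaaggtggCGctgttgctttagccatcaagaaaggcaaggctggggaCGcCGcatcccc
LINC03015, chr7:149389-149688, minus strand: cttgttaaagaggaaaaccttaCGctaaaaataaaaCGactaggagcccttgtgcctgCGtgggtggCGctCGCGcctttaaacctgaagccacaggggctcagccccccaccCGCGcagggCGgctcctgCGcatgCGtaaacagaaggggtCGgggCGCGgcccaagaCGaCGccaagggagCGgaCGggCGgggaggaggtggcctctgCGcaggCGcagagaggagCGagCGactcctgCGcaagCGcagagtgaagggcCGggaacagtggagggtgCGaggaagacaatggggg
The 3 windows held 32, 11 and 27 CG dinucleotides, compared with a median of 13.5 over 134 promoters of 114 LINC genes found in the RefSeq table and 14 over all 35116 promoters. No methylation was measured here. Of the same 134 promoters, searched on both strands, 24 held TATAAA (17.9%, against 11.5% of all promoters), 56 held CCAAT (41.8% against 34.6%) and 2 held the core of the interferon-stimulated response element (1.49% against 3.57%), those of LINC00623 and LINC01138.

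LINC genes with a described role in carcinoma or differentiation made up a list of 24, of which 15 were among the 163. Of these 15, none rose and 7 fell in parental cells on the drug, 2 rose and 6 fell in resistant cells, 6 were higher and 8 lower in the resistant line off the drug, and 7 were higher and 5 lower on it. Over all tested genes the shares higher and lower were 31.6% and 26.6%, 24.9% and 25.8%, 30.3% and 29.9%, and 34.6% and 34.9% in the same order. LINC00941, LINC01133, LINC00671 and LINC01559 were without a read in any library, LINC00958 and LINC00261, a gene beside FOXA2, had 3 reads each in all, and 3 listed symbols had no line under that name.

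LINC01138, an RNA described in liver cancer, fell from 5.78 and 6.38 to 2.77 and 2.89 CPM in parental cells (-1.10 ± 0.09 on the log2 scale, edgeR adjusted p = 3.3e-10) and had 6.54 to 7.48 CPM in the resistant libraries, with no call for the drug. LINC00339 fell from 2.81 and 3 to 1.88 and 1.45 CPM in parental cells and had 2.19 to 2.53 CPM in resistant ones. LINC01089 fell from 4.3 in both to 2.25 and 1.9 CPM, but it shares exons on the same strand with RHOF, to which 97.3% of their joint reads were counted. LINC00205 fell alike in both lines, by 0.45 and 0.46 on the log2 scale, and LINC01503 fell by 0.30 in parental cells alone, with a difference between the responses of 0.39 ± 0.13 (edgeR adjusted p = 0.012).

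Others differed between the lines in both states. LINC00511, an RNA described as growth promoting in several carcinomas, had 5.31 to 6.22 CPM in parental and 9.21 to 10.8 CPM in resistant libraries, a difference of 0.85 ± 0.06 off and 0.74 ± 0.07 on the drug (edgeR adjusted p = 3.7e-11 and 1.1e-09). LINC00460 was higher by 0.94 ± 0.15 off the drug, and LINC01232 by 0.62 ± 0.15, although 98.8% of the reads of LINC01232 and its opposite-strand partner TM9SF2 were counted to the latter. LINC00857 had 18.5 to 20.2 CPM in parental and 12.2 to 13.7 CPM in resistant libraries (-0.62 ± 0.05 off the drug), and LINC00467 was lower by 0.54 ± 0.07. In resistant cells these 3 were also called for the drug, with LINC00511 (-0.22 ± 0.06) and LINC00467 (-0.21 ± 0.08) lower and LINC00857 (0.14 ± 0.05) higher on the log2 scale (edgeR adjusted p = 0.0058, 0.026 and 0.027), while none of the 3 was called in parental cells.

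Among the most abundant of the list, LINC00665 had 76.5 to 80.2 CPM in parental, 64.2 and 63.1 CPM in resistant cells off and 49.9 and 48.6 CPM on the drug. It resembles LINC01535 over much of its length, so some of its reads are uncertain. LINC00667 fell by 0.18 in each line, with 34.9% of joint reads counted to its antisense partner ZBTB14, and LINC00963 fell by 0.16 and 0.43. The remaining 2, LINC00662 (8.5 to 10.7 CPM) and LINC00265 (5.52 to 7.25 CPM), were called by the drug in neither line and were slightly lower in the resistant line off the drug, by 0.17 and 0.24 on the log2 scale. LINC00973 and LINC01278, outside the list but among the highest levels, had 21.3 to 36 and 25 to 33.1 CPM, and LINC01278 fell in both lines, by 0.40 and 0.22.

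The machinery that degrades or terminates such RNAs was followed through 34 genes of the exosome, its NEXT and PAXT adaptors and the Integrator complex, which cleaves nascent noncoding RNA. In parental cells 17 rose and 10 fell on the drug, where 50.5% of all tested genes at 10 CPM or more, the level of these genes, rose and 24.5% fell. INTS8 and INTS2, Integrator subunits, rose by 0.49 ± 0.03 and 0.47 ± 0.03 on the log2 scale, while PABPN1, the nuclear poly(A) binding protein of the PAXT pathway, fell by 0.62 ± 0.09 and INTS11, the Integrator nuclease, by 0.39 ± 0.05. In resistant cells 5 rose and 20 fell, against 26.5% and 38.1% of genes at that level. INTS2 (0.20 ± 0.03) and INTS6 (0.13 ± 0.03) rose, and INTS10 (-0.41 ± 0.03) and EXOSC5, an exosome core subunit, (-0.40 ± 0.04) fell. PABPN1 changed by 0.11 ± 0.10 in resistant cells (edgeR adjusted p = 0.40), and the difference between its responses was 0.73 ± 0.14. Whether any of these levels bears on the LINC genes was not tested.

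The nearest protein-coding genes were set beside the LINC genes. Among 125 LINC genes whose nearest protein-coding gene was also tested, both were called in the parental drug comparison in 40 pairs, 14 in the same and 26 in opposite directions. In resistant cells the counts were 16 and 12, and between the lines off the drug 32 and 15. They were 35 and 22 between the lines on the drug, and 7 and 21 for the difference of the responses. In the parental drug comparison 17 LINC genes rose and 67 fell, while 42.0% of protein-coding genes rose and 26.0% fell. Such shares by themselves make opposite pairs frequent. Whether opposite pairs exceeded what the shares give was not tested. Spearman's rho over the 125 pairs was -0.01, 0.08, 0.30, 0.16 and 0.05 in the same order. It is given as a description, since the pairs share libraries and in some cases reads.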

How the data were processed

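Poly(A)-selected RNA of 8 libraries was sequenced with a stranded kit as paired-end reads. Per the labels and the study's methods, the authors trimmed reads with SeqPurge, aligned them to GRCh38 with HISAT2 2.2.1 and deposited raw read counts per Ensembl gene for each library, with marked duplicates not counted. Picard and HTSeq are named in the submitters' processing notes with no role, and the annotation release and strand setting of the counting are not given in the sources used here. The 9 closing lines of each table, reads outside genes and other unassigned reads, stayed out of library sizes and tests; reads outside genes made up 2.86% to 3.94% of all. Of 60675 gene lines, 60419 matched GENCODE 44, whose GRCh38 coordinates are used.

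Counts of 16661 genes that passed filterByExpr were tested in 1 fit of all 8 libraries with edgeR 4.0.16 in R 4.3.3, with TMM scaling, robust quasi-likelihood dispersions, 1 mean per group and 4 residual degrees of freedom. P-values were adjusted over all tested genes after Benjamini and Hochberg, and an adjusted p under 0.05 was called. CPM values are TMM scaled, errors of log2 changes are standard errors. With 2 libraries against 2 an exact permutation test of a single gene cannot go below p = 0.333, so calls rest on the spread shared across genes. The script was tested on simulated counts. DESeq2 1.42.0, other scalings and filters, a replicate block, thinning and each library left out were alternatives. Overlaps came from bedtools 2.31.1, copies from BLAST+ 2.17.0 and promoters from RefSeq. Depth was 65266253 to 108002436 assigned reads, and counting error alone limits the genes near 0.3 CPM.

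The 163 genes and the gene lists were chosen with earlier results of these data known. Genes named are the 6 highest mean levels, in each comparison the 4 largest rises and falls among called genes without overlap, the genes of the published-role list, and those next to the level limit; in the decay list the 2 largest called changes in each direction. Other names, the promoters and the splice sites shown were chosen after their values were seen. Same-numbered libraries did not deviate together, with correlations of deviations between -0.0571 and 0.0234 over the 6 pairs of groups, so the numbers were not taken as pairs.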

Additional observations from a re-analysis of the deposited data

Results flagged for a closer look

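For 8 named genes the 2 lines responded unequally to indisulam, by the test of the difference itself (resistant minus parental log2 change). LINC00173 (2.14), LINC00482 (2.05), LINC02298 (2.04) and LINC00106 (1.85) had the 4 largest positive differences. LINC00173 fell in parental cells and was not called in resistant ones, and the other 3 fell in parental and rose in resistant cells. When single libraries were left out, the difference for LINC00482 ranged from 1.69 to 2.55.

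The differences in the other direction were -1.03 for LINC02967, -0.65 for LINC02454, -0.33 for LINC00665 and -0.28 for LINC00963. LINC02967 and LINC02454 rose in parental cells and were not called in resistant ones. The difference for LINC02967 ranged from -1.24 to -0.75 over the fits without 1 library. LINC02454 had 2.39 and 1.65 CPM off the drug in resistant cells. Without the first library off the drug or the second on it, its difference was no longer called, and it ranged from -0.87 to -0.32 over the 8 fits, with an edgeR adjusted p of at most 0.23.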

How the results depend on the processing

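The number of LINC genes called stayed within 1.5 times the count in the report under edgeR with DESeq2 size factors, library totals, no filter, only the compared groups, thinned libraries, an adjusted p under 0.01 and without the 14 genes with a copy. It left that range in these cases, given in the order parental drug, resistant drug, lines off and lines on the drug and difference of the responses, where the report has 84, 62, 92, 99 and 70. A test against 0.5 log2 units called 27, 10, 31, 38 and 17. Only genes without exon overlap, 97 of the 163, gave 49, 40, 60, 61 and 44. The DESeq2 Wald test called 61, 41, 61, 69 and 34, of which 41, 61 for the lines off the drug and 34 are outside the range; the cause was not tested. For lines on the drug, a filter at a mean of 1 CPM gave 64 and LINC genes at 1 CPM or more gave 62, both among 94 genes. With single libraries left out the counts ranged from 69 to 90, 44 to 67, 72 to 91, 84 to 105 and 59 to 74.

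With the replicate block the counts were 84, 59, 91, 100 and 68; the numbers are not known to mark a shared culture and the correlations of deviations were near 0.

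Of 40 pairs of a named gene and a comparison, 32 kept direction and call under each alternative run on single genes, and none was reversed. Most genes near 0.3 CPM have standard errors over 0.2 on the log2 scale, so smaller changes were not detectable there.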
